A study of Homo sapiens with 6 samples.

Results

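Gene expression was compared between T98G cells that received an SRPK1 expression vector (oeSRPK1) and untreated T98G cells (NT), with 2 libraries of each, 4 of the 6 libraries of the series. T98G is an established human glioblastoma line. The vector was pcDNA3.1 carrying full-length SRPK1 copied from T98G cDNA, delivered transiently with a lipid reagent, per the labels' protocols. NT cells are labelled only as untreated, and the time between transfection and harvest is not given in the sources used here. No library of cells that received an empty vector or the lipid alone was used here, so SRPK1, the plasmid and the transfection cannot be told apart. The other 2 libraries came from T98G cells that were given a pLKO.1 plasmid with a short hairpin to SRPK1 (shSRPK1). They share in the estimate of the spread and serve as a second transfected group. The duplicates are called biological replicates in the series text, which does not say if each was its own culture. The p-values therefore rest on the spread of these libraries alone, and some of it may be technical. All genes were compared, and 81 transcripts of the sarcomere and of striated muscle were kept apart from the rest.

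SRPK1 is a kinase that phosphorylates serine/arginine-rich (SR) proteins, which bind pre-mRNA and guide splice site choice, and that phosphorylation steers them between cytoplasm and nucleus. Foreign nucleic acid in a cell is read by sensors such as RIG-I and MDA5 for RNA and cGAS and IFI16 for DNA, which switch on the transcription factors IRF3 and NF-kB. Secreted type I and type III interferons then signal through JAK kinases to transcription factors such as STAT2 and IRF9, which bind the interferon-stimulated response element and raise a large set of antiviral genes. NF-kB and AP-1 drive cytokines and chemokines, NRF2 drives antioxidant and detoxifying enzymes through the antioxidant response element, and E2F factors drive the genes of DNA replication at the entry to S phase.

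Reads counted in genes numbered 9891606 and 13634038 in NT and 22691215 and 3891549 in oeSRPK1, so oeSRPK1 2 was the shallowest of the 6 libraries. Levels are given as CPM, read counts scaled to a common normalised library size, for replicates 1 and 2 in that order. A floor of 3 reads stood for 0.132 to 0.771 CPM across the 6 libraries. SRPK1 itself stood at 153 and 140.4 CPM in NT and 190.3 and 168 CPM in oeSRPK1, a change of 0.29 ± 0.14 on the log2 scale that did not pass (edgeR adjusted p = 0.175). It passed without shSRPK1 1 or shSRPK1 2, at edgeR adjusted p = 0.0267 and 0.0319. Both oeSRPK1 libraries lay above both NT libraries for SRPK1, as they did for 35.9% of all genes tested. The comparison below is therefore between vector-treated and untreated cells, not between known levels of the kinase. Of the glioma markers, VIM, an intermediate filament protein, stood at 1827 and 2117 CPM in NT and 2702 and 2553 CPM in oeSRPK1 and CD44, the hyaluronan receptor, at 2529 and 2705 CPM in NT and 3336 and 3064 CPM in oeSRPK1. GFAP, SOX2, S100B and FABP7 had no read in these 4 libraries. Markers of immune cells summed to 0.485 and 0.777 CPM in NT and 0.945 and 0.517 CPM in oeSRPK1, with 5 of 10 at 0 in all 4 libraries. Those of erythroid cells were all at 0. Not all marker lists of other cell types were near 0. Epithelial markers summed to 50.2 and 55.3 CPM in NT and 77.8 and 78.3 CPM in oeSRPK1. Smooth muscle markers summed to 33.8 and 38.4 CPM in NT and 38.5 and 40.8 CPM in oeSRPK1. Neuronal markers summed to 18.7 and 21.6 CPM in NT and 14.8 and 11.9 CPM in oeSRPK1.

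Against NT, 3036 of 14732 tested genes (20.6%) passed in edgeR's quasi-likelihood test at a Benjamini-Hochberg adjusted p under 0.05, 1644 of them higher in oeSRPK1 (11.2% of genes tested) and 1392 lower (9.45%). All changes below are log2 fold changes ± standard error (SE) of oeSRPK1 against NT (n = 2 per group) from that fit over all 6 libraries. Among the genes that passed, 729 rose at least 2-fold, 254 at least 4-fold and 86 at least 8-fold, and 503, 81 and 14 fell by as much. The larger changes were therefore mostly rises, while the median change over all genes tested was 0.00. Of the 14696 genes tested outside the muscle list, called or not, 88.3% lay within 1.5-fold between oeSRPK1 1 and oeSRPK1 2, and 749 differed by more than 2-fold. These are values of bulk RNA, in which fewer cells of a kind and less RNA per cell cannot be told apart. The number of calls changed strongly when a single library was left out. Such a fit has fewer samples, and without an NT or oeSRPK1 library a single library is left in that group. Lost power and dependence on that library therefore cannot be told apart, here and for the gene groups below. Higher and lower calls numbered 216 and 163 without NT 1, 276 and 205 without NT 2, 224 and 69 without oeSRPK1 1, and 615 and 378 without oeSRPK1 2. They numbered 3058 and 3291 without shSRPK1 1 and 3052 and 3363 without shSRPK1 2, whose duplicates differed most (chi-square per gene 43.9, against 4.33 for NT and 7.80 for oeSRPK1). With each of the 6 libraries left out in turn, 153 of the 1644 higher calls and 68 of the 1392 lower calls held every time.

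**Figure D1:**
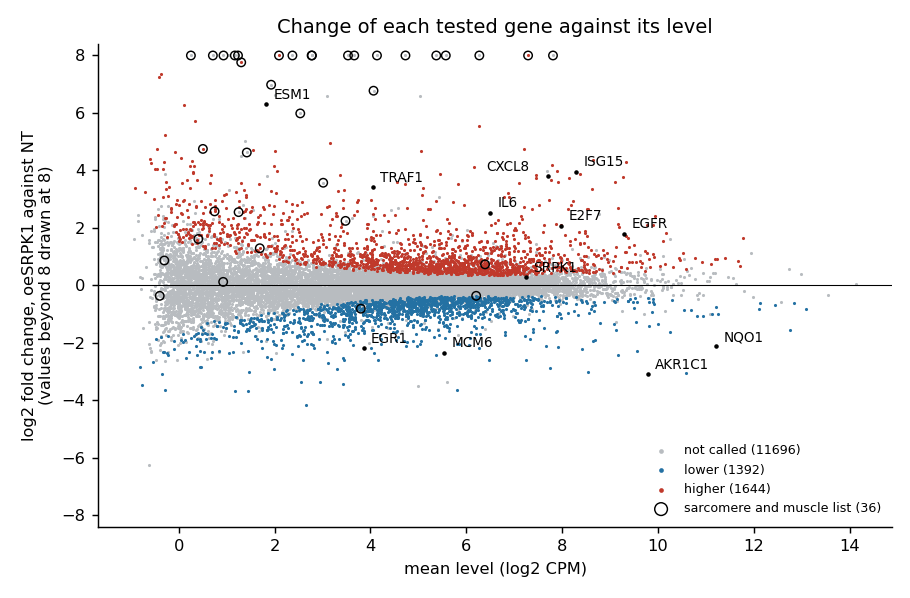
Each point is 1 tested gene, with its mean level (log2 CPM, horizontal) and its log2 fold change between oeSRPK1 and NT (vertical, values beyond 8 drawn at 8). The 1644 genes called higher are red, the 1392 called lower are blue, and open circles are the 36 tested genes of the sarcomere and muscle list, many of which lie at the top edge.

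Transcripts of striated muscle were present in the oeSRPK1 libraries and nearly absent from the NT libraries, at very different levels in the oeSRPK1 duplicates. MYH7, the heavy chain of slow and cardiac myosin, had 0 and 0 reads in the NT libraries, 0 and 61 in those of shSRPK1 and 2399 and 4905 in those of oeSRPK1. ACTA1, the actin of skeletal muscle fibres, had 1 and 2 reads in the NT libraries, 1 and 37 in those of shSRPK1 and 1646 and 3469 in those of oeSRPK1. TTN, the giant elastic protein of the sarcomere, had 2 and 2 reads in the NT libraries, 1 and 13 in those of shSRPK1 and 558 and 1131 in those of oeSRPK1. The oeSRPK1 2 library had fewer gene reads in all than oeSRPK1 1 but more reads of each of these 3 genes. In CPM the values in oeSRPK1 were 108 and 1268 for MYH7, 74.0 and 897 for ACTA1 and 25.1 and 292 for TTN. The list was set apart because its transcripts differ between the oeSRPK1 duplicates, so the values here describe that difference and are no test of it. Of the 81 genes, 26 had at least 20 reads in oeSRPK1 2 and at most 3 in each NT library. Their CPM was higher in oeSRPK1 2 than in oeSRPK1 1 by a median factor of 12.4 (range 5.45 to 19.2), and 21 of the 26 differed by more than 10-fold. Together the 26 made up 0.0330% of gene reads in oeSRPK1 1 (95% Wilson interval 0.0322% to 0.0337%) and 0.404% in oeSRPK1 2 (0.398% to 0.410%). The mix was alike where the transcripts occurred: MYH7 gave 31.8%, 32.1% and 31.2% of these reads in shSRPK1 2, oeSRPK1 1 and oeSRPK1 2, from 192, 7478 and 15713 reads of the 26 genes.

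The muscle transcripts covered most parts of the sarcomere. In oeSRPK1 1 and 2, the thick filament genes MYH6 and MYL3 had 894 and 1765 and 94 and 228 reads, the thin filament genes NEB, ACTC1 and TNNC1 456 and 1008, 153 and 342 and 187 and 457, the Z disc gene ACTN2 282 and 686 and the muscle creatine kinase CKM 212 and 482. MYH6 and MYH7 are near-identical in sequence, so reads could be lost or split between them. Other muscle genes were at or near 0 in the same libraries: the myosin light chains MYL2, MYL4 and MYL7, the cardiac troponin TNNT2 and the atrial peptide NPPA had 0 reads in both oeSRPK1 libraries. Of the list, 36 genes passed the filter on low counts, 24 of them with under 10 reads in each NT library, so that they passed through libraries of transfected cells and their number of calls is no support for a rise. The genes called higher were MYH7B, ACTA1, TNNT1, NEBL, KLHL41, RYR1 and PYGM, 7 in all. The test sets the group means against the spread of duplicates, which was wide for these genes. Called members numbered 32 without oeSRPK1 1, 22 without oeSRPK1 2, 0 without NT 1 and 0 without NT 2. They numbered 29 with the replicate number as a block, 27 in DESeq2, 18 without a filter, 4 with only the NT and oeSRPK1 libraries, 2 in limma-voom and 1 with reads thinned to the shallowest library. The calls on ACTA1, KLHL41, PYGM and RYR1 (NT 1, NT 2, shSRPK1 1, shSRPK1 2), MYH7B (NT 1, NT 2, oeSRPK1 2) and NEBL and TNNT1 (NT 1, NT 2, oeSRPK1 1, oeSRPK1 2) did not hold when 1 of the bracketed libraries was left out (edgeR adjusted p up to 0.234). TNNT1 was also expressed in NT, at 698 and 982 reads. Outside the list, 23 genes with at least 20 reads in oeSRPK1 2 were over 5-fold higher there than in oeSRPK1 1, and 0 genes with at least 100 reads in oeSRPK1 1 were over 5-fold higher in it. Named after their values were seen, the small heat shock protein CRYAB stood at 11 and 16 reads in NT and at 418 and 787 in oeSRPK1, and the fatty acid binding protein FABP3 had 0 and 0, and 31 and 80. The source of these transcripts was not tested. With the whole list left out, 1686 genes were called higher and 1412 lower.

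**Figure D2:**
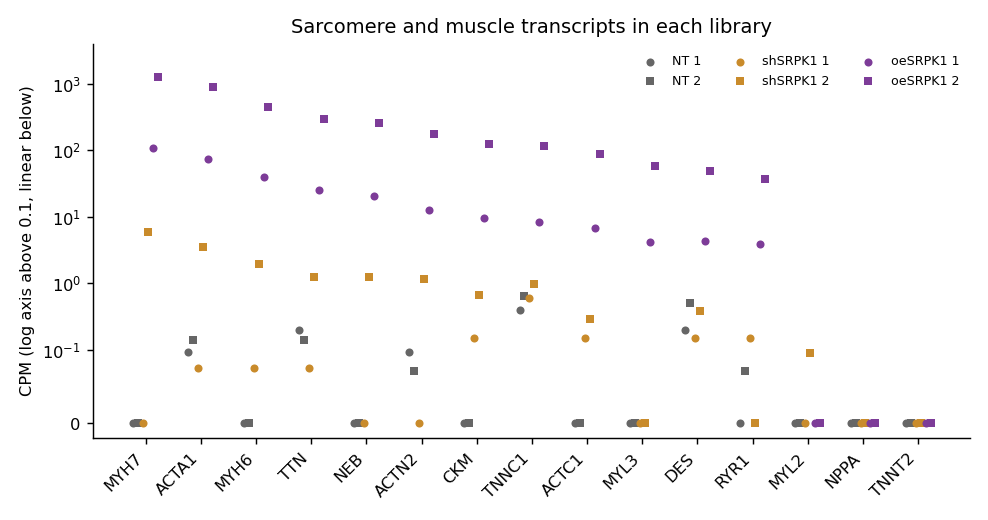
Level of 15 sarcomere and muscle transcripts in each library (CPM, log axis above 0.1 and linear below; circles are replicate 1, squares replicate 2). The 12 genes on the left lie about 10-fold higher in oeSRPK1 2 than in oeSRPK1 1, while MYL2, NPPA and TNNT2 were at 0 in both.

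Among genes that sense foreign nucleic acid and carry the interferon signal, most sensors were called higher and most receptors were not called. Of the 42 genes in this group 35 were tested, and 17 passed as higher and 0 as lower (48.6% and 0%, against 11.2% and 9.45% of genes tested), with a median change of 0.79. Among the ligands, IFNL1, a type III interferon, had 0 reads in NT and 1.12 and 2.58 CPM in oeSRPK1 (25 and 10 reads). It passed at edgeR adjusted p = 0.0120, and its fitted change depends on the added prior count. IFNL1 reached the filter on low counts only through libraries of transfected cells. Its call is therefore no support for a rise. IFNB1, named after its values were seen, had 1 read in each NT library, 23 in oeSRPK1 1 and 3 in oeSRPK1 2, and did not reach the filter. Sensors passed in 7 of 8 tested cases. RIGI, which binds RNA with a free triphosphate end, stood at 15.4 and 28.1 CPM in NT and 312 and 272 CPM in oeSRPK1 (3.74 ± 0.51), and IFIH1, the sensor MDA5, at 16.7 and 24.1 CPM in NT and 196 and 181 CPM in oeSRPK1 (3.20 ± 0.41). The DNA sensors IFI16 and AIM2 rose as well, IFI16 from 156 and 158 to 453 and 401 CPM (1.45 ± 0.15, edgeR adjusted p = 0.00124). AIM2 stood at 3.59 and 4.66 CPM in NT and 25.6 and 25.1 CPM in oeSRPK1 (2.61 ± 0.19, edgeR adjusted p = 0.000397). CGAS had no read in these 4 libraries. STING1, the adaptor downstream of cyclic dinucleotides, stood at 23.9 and 22.3 CPM in NT and 48.0 and 46.3 CPM in oeSRPK1 (1.03 ± 0.13), whereas the adaptor MAVS (263 and 261 CPM in NT and 311 and 277 CPM in oeSRPK1) and the kinase TBK1 (52.3 and 49.5 CPM in NT and 47.8 and 48.3 CPM in oeSRPK1) did not pass. Single left-out libraries, in brackets, ended the calls on IFNL1 (NT 1, NT 2, oeSRPK1 1, oeSRPK1 2), RIGI and IFIH1 (NT 1) and STING1 (NT 2, oeSRPK1 1) (edgeR adjusted p up to 0.0940).

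The interferon receptors and JAK kinases passed in 1 of 9 cases, and the chains of the type I receptor did not pass: IFNAR1 changed by 0.40 ± 0.12 and stood at 79.0 and 73.7 CPM in NT and 106 and 94.1 CPM in oeSRPK1. The transcription factors passed in 4 of 8 cases. STAT2 and IRF9, partners in the complex that binds interferon-stimulated genes, rose by 1.29 ± 0.20 and 1.72 ± 0.32. STAT2 stood at 78.2 and 90.0 CPM in NT and 216 and 195 CPM in oeSRPK1. IRF7, which amplifies interferon production and is itself induced by interferon, stood at 8.16 and 11.6 CPM in NT and 69.0 and 79.1 CPM in oeSRPK1 (2.89 ± 0.23, edgeR adjusted p = 0.000454). IRF3, present before induction, did not pass (64.2 and 72.7 CPM in NT and 61.2 and 61.3 CPM in oeSRPK1). USP18, an inhibitor of the type I receptor that interferon induces, rose from 4.66 and 6.78 to 62.4 and 57.4 CPM (3.37 ± 0.30, edgeR adjusted p = 0.00114). Higher calls in the signalling group numbered 6 without oeSRPK1 1, 5 without NT 1, 8 without NT 2, 26 without shSRPK1 1 and 26 without shSRPK1 2. When 1 of the bracketed libraries was left out, the calls on STAT2 and IRF9 (NT 1, NT 2, oeSRPK1 1) were lost (edgeR adjusted p up to 0.170).

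The effectors were the group with most higher calls: 65 of 73 tested genes passed as higher (89.0%, against 11.2% of genes tested) and 1 as lower, with a median change of 2.41. ISG15, a ubiquitin-like modifier, stood at 31.3 and 50.1 CPM in NT and 597 and 667 CPM in oeSRPK1, 15.5 times higher (3.95 ± 0.23, edgeR adjusted p = 0.000294). MX1, a GTPase that blocks viral ribonucleoproteins, stood at 16.8 and 30.2 CPM in NT and 294 and 282 CPM in oeSRPK1 (3.60 ± 0.35, edgeR adjusted p = 0.00219). OAS1 and OAS3, which make the 2-5A messenger that activates RNase L, changed by 3.99 ± 0.29 and 3.76 ± 0.24. OAS1 stood at 15.9 and 27.8 CPM in NT and 371 and 329 CPM in oeSRPK1. IFITM3, which hinders viral fusion, was already abundant in untreated cells, at 251 and 323 CPM, and rose to 1259.7 and 1188 CPM (2.09 ± 0.17, edgeR adjusted p = 0.000454). The tetherin BST2 rose from 143 and 174 to 396 and 406 CPM (1.34 ± 0.14). IFIT1, which binds uncapped or incompletely capped RNA, differed between the NT libraries, at 9.81 and 23.6 CPM, and stood at 328 and 294 CPM in oeSRPK1 (4.20 ± 0.62, edgeR adjusted p = 0.0131). RSAD2, the antiviral enzyme viperin, stood at 0.874 and 5.44 CPM in NT and 175 and 141 CPM in oeSRPK1 (5.55 ± 0.97). SAMHD1, which breaks down deoxynucleotides, rose from 39.0 and 46.5 to 325 and 268 CPM (2.79 ± 0.15, edgeR adjusted p = 0.000294). SP100, a component of nuclear bodies, changed by 2.15 ± 0.16, and PARP9, an ADP-ribosyltransferase partner of DTX3L, by 2.67 ± 0.16. For each of the genes named here both oeSRPK1 libraries lay above both NT libraries, as they did for 35.9% of all genes tested. The 1 gene called lower, named after its values were seen, was GBP2, a guanylate-binding protein, at 117 and 133 CPM in NT and 84.0 and 84.5 CPM in oeSRPK1 (-0.57 ± 0.16, edgeR adjusted p = 0.0396). Higher calls numbered 40 without oeSRPK1 1 and 39 without NT 1. With a bracketed library left out, the calls on IFIT1 (NT 1), RSAD2 (NT 1, NT 2, oeSRPK1 1) and GBP2 (NT 1, NT 2, oeSRPK1 1, oeSRPK1 2) were lost, at an edgeR adjusted p of up to 0.234.

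The promoters of ISG15 and IFIT1 show the element that interferon factors bind. The last 170 bases before the RefSeq start (GRCh38.p14) are printed in lower case, and the capitals mark matches to GAAA, any 2 bases and GAAA on either strand, the core of the interferon-stimulated response element. The ISG15 window is chr1:1013327-1013496, plus strand, and that of IFIT1 is chr10:89392453-89392622, plus strand.
ISG15: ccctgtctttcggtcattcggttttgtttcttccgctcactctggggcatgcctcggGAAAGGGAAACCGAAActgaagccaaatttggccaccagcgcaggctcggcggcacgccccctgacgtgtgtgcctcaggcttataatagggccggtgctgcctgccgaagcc
IFIT1: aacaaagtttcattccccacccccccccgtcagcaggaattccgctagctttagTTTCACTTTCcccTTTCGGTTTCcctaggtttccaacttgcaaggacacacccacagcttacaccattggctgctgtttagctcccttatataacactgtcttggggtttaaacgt
Each window held 2 matches, overlapping in ISG15, and the first began 113 bases before the start of ISG15 and 116 before that of IFIT1. In the 250 bases before the start, 29 of the 57 effectors with a RefSeq promoter in the table held a match (50.9%), against 3.07% of all 27305 promoters. A match describes the sequence and not binding in these cells.

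Of 27 tested genes of antigen presentation by MHC class I, 13 passed as higher and 0 as lower (48.1% and 0%, against 11.2% and 9.45% of genes tested), with a median change of 0.67. The heavy chains HLA-B and HLA-C rose, HLA-B from 146 and 162 to 476 and 458 CPM (1.60 ± 0.12, edgeR adjusted p = 0.000426) and HLA-C from 465 and 522 to 1109.8 and 1175 CPM (1.21 ± 0.14). HLA-F, a non-classical heavy chain, stood at 14.5 and 17.1 CPM in NT and 53.8 and 54.3 CPM in oeSRPK1 (1.77 ± 0.13). These genes are highly polymorphic and close in sequence, so reads could be lost or split between them. B2M, the light chain, changed by 0.93 ± 0.15 and TAP1, a subunit of the peptide transporter, stood at 58.5 and 66.2 CPM in NT and 235 and 216 CPM in oeSRPK1 (1.86 ± 0.15, edgeR adjusted p = 0.000486). NLRC5, the activator of class I genes, rose by 1.43 ± 0.23. The class II activator CIITA did not pass (16.6 and 14.9 CPM in NT and 15.4 and 12.4 CPM in oeSRPK1). The immunoproteasome subunit PSMB9 did not pass and differed between the duplicates, at 14.9 and 9.82 CPM in NT and 8.95 and 34.9 CPM in oeSRPK1. Higher calls numbered 4 without oeSRPK1 1, 8 without oeSRPK1 2, 6 without NT 1 and 6 without NT 2. Leaving out 1 of the libraries in brackets ended the calls on B2M (NT 1, NT 2, oeSRPK1 1, oeSRPK1 2) and NLRC5 (NT 1, NT 2, oeSRPK1 1), at an edgeR adjusted p of up to 0.107.

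Of 29 tested genes of the NF-kB pathway, 15 passed as higher and 3 as lower (51.7% and 10.3%, against 11.2% and 9.45% of genes tested), with a median change of 0.68. The share of lower calls was close to that over all genes. The subunits passed in 3 of 5 cases. NFKB2, which is processed to p52, stood at 34.1 and 40.2 CPM in NT and 81.5 and 72.9 CPM in oeSRPK1 (1.06 ± 0.14), while RELA did not pass (83.9 and 90.0 CPM in NT and 115 and 105 CPM in oeSRPK1). Feedback inhibitors passed in 6 of 8 cases: TNFAIP3, the ubiquitin-editing enzyme A20, stood at 15.5 and 20.2 CPM in NT and 44.9 and 40.8 CPM in oeSRPK1 (1.26 ± 0.22, edgeR adjusted p = 0.00744) and its partner TNIP1 at 121 and 147 CPM in NT and 347 and 314 CPM in oeSRPK1 (1.30 ± 0.15). NFKBIA, the inhibitor IkBa, did not pass (62.1 and 75.4 CPM in NT and 90.5 and 88.1 CPM in oeSRPK1). TRAF1, an adaptor of TNF receptors, stood at 3.40 and 4.38 CPM in NT and 43.0 and 41.4 CPM in oeSRPK1, 10.7 times higher (3.42 ± 0.18, edgeR adjusted p = 0.000282). BIRC3, the ubiquitin ligase cIAP2, rose from 178 and 229 to 1428 and 1209.5 CPM (2.70 ± 0.18, edgeR adjusted p = 0.000378). The 3 genes called lower, named after their values were seen, were the TNF receptor TNFRSF1A (-0.83 ± 0.13), the lymphotoxin receptor LTBR (-0.68 ± 0.10) and the kinase NIK, MAP3K14 (-0.61 ± 0.12). Higher calls numbered 2 without oeSRPK1 1, 8 without oeSRPK1 2, 3 without NT 1 and 8 without NT 2. Lower calls numbered 0 without oeSRPK1 1, 0 without NT 1, 0 without NT 2, 5 without shSRPK1 1 and 5 without shSRPK1 2. The calls on NFKB2 and TNFAIP3 (NT 1, oeSRPK1 1), TNIP1 (oeSRPK1 1), TNFRSF1A and LTBR (NT 1, NT 2, oeSRPK1 1) and MAP3K14 (NT 1, NT 2, oeSRPK1 1, oeSRPK1 2) did not hold when 1 of the bracketed libraries was left out (edgeR adjusted p up to 0.161).

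Of 49 tested genes of cytokines, chemokines, growth factors and linked surface proteins and enzymes, 32 passed as higher and 2 as lower (65.3% and 4.08%, against 11.2% and 9.45% of genes tested). Their median change was 1.49, against 0.00 over all genes. Cytokines passed as higher in 8 of 14 cases. IL6 stood at 29.8 and 38.3 CPM in NT and 205 and 190.0 CPM in oeSRPK1 (2.53 ± 0.17, edgeR adjusted p = 0.000378). IL1A and IL1B, the ligands of the interleukin-1 receptor, changed by 3.27 ± 0.26 and 2.98 ± 0.26, IL1B from 3.69 and 3.32 to 31.1 and 23.0 CPM. CSF2, the growth factor GM-CSF, stood at 0.680 and 0.847 CPM in NT and 24.6 and 24.6 CPM in oeSRPK1 (4.97 ± 0.35, edgeR adjusted p = 0.000392). Of the chemokines, 5 of 7 passed as higher. CXCL8, which attracts neutrophils, rose from 27.2 and 40.5 to 523 and 419 CPM, 13.9 times (3.79 ± 0.26, edgeR adjusted p = 0.000426), and CCL5, which attracts T cells, stood at 0.194 and 0.212 CPM in NT and 5.49 and 5.95 CPM in oeSRPK1 (4.73 ± 0.37). Growth factors passed in 10 of 15 cases. VEGFA, the angiogenic factor, rose from 371 and 465 to 1204 and 989 CPM (1.39 ± 0.18). ESM1, a proteoglycan first described in endothelium, had 1, 2, 233 and 41 reads in NT 1, NT 2, oeSRPK1 1 and oeSRPK1 2 (6.31 ± 0.64, edgeR adjusted p = 0.00114). CSF2, ESM1 and CCL5 reached the filter on low counts only through libraries of transfected cells, so their calls are no support for a rise. Among surface proteins and enzymes, ICAM1, a ligand of leukocyte integrins, stood at 19.9 and 18.8 CPM in NT and 73.8 and 71.6 CPM in oeSRPK1 (1.91 ± 0.19) and PTGS2, the inducible cyclooxygenase, at 30.0 and 39.2 CPM in NT and 97.1 and 85.8 CPM in oeSRPK1 (1.40 ± 0.15). VCAM1 did not pass, at 180.3 and 195 CPM in NT and 109 and 103 CPM in oeSRPK1. The 2 genes called lower, named after their values were seen, were CXCL12 (-1.78 ± 0.30) and IL7 (-0.83 ± 0.20). Higher calls numbered 17 without oeSRPK1 1, 18 without NT 1 and 20 without NT 2. Lower calls numbered 0 without oeSRPK1 1, 1 without oeSRPK1 2, 0 without NT 1, 0 without NT 2, 6 without shSRPK1 1 and 6 without shSRPK1 2. Single left-out libraries, in brackets, ended the calls on VEGFA (NT 1, oeSRPK1 1), CXCL12 (NT 1, NT 2, oeSRPK1 1) and IL7 (NT 1, NT 2, oeSRPK1 1, oeSRPK1 2) (edgeR adjusted p up to 0.222).

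The kappaB element, the 10-base site of NF-kB, is shown in the promoters of a cytokine and of an inhibitor that both rose. Capitals mark matches on either strand in the last 170 bases before the RefSeq start (GRCh38.p14), chr7:22727030-22727199, plus strand for IL6 and chr6:137867089-137867258, plus strand for TNFAIP3.
IL6: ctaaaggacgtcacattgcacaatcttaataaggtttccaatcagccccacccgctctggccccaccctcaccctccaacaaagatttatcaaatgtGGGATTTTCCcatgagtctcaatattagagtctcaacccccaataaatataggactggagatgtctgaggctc
TNFAIP3: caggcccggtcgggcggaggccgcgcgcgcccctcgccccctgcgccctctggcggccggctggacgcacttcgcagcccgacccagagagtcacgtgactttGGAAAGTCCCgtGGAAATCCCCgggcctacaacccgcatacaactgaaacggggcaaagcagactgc
The IL6 window held 1 match, which began 73 bases before the start, and the TNFAIP3 window held 2, which began 67 and 55 bases before it. In the 250 bases before the start, 32.7% of the 49 cytokine-group promoters in the table and 34.6% of the 26 of the NF-kB group held a match, against 9.57% of all promoters. A match was in 11.8% of promoters of genes tested and 12.4% of those of genes called higher. In the other gene groups the share ran from 0% to 32.0%, highest for the MHC class I group. The AP-1 element TGACTCA was in 12.2% of the cytokine-group promoters, against 4.16% of all. For this element the other gene groups ran from 0% to 10.3%, highest for the sarcomere and muscle list, and the ERK and AP-1 group was at 0%.

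**Figure D3:**
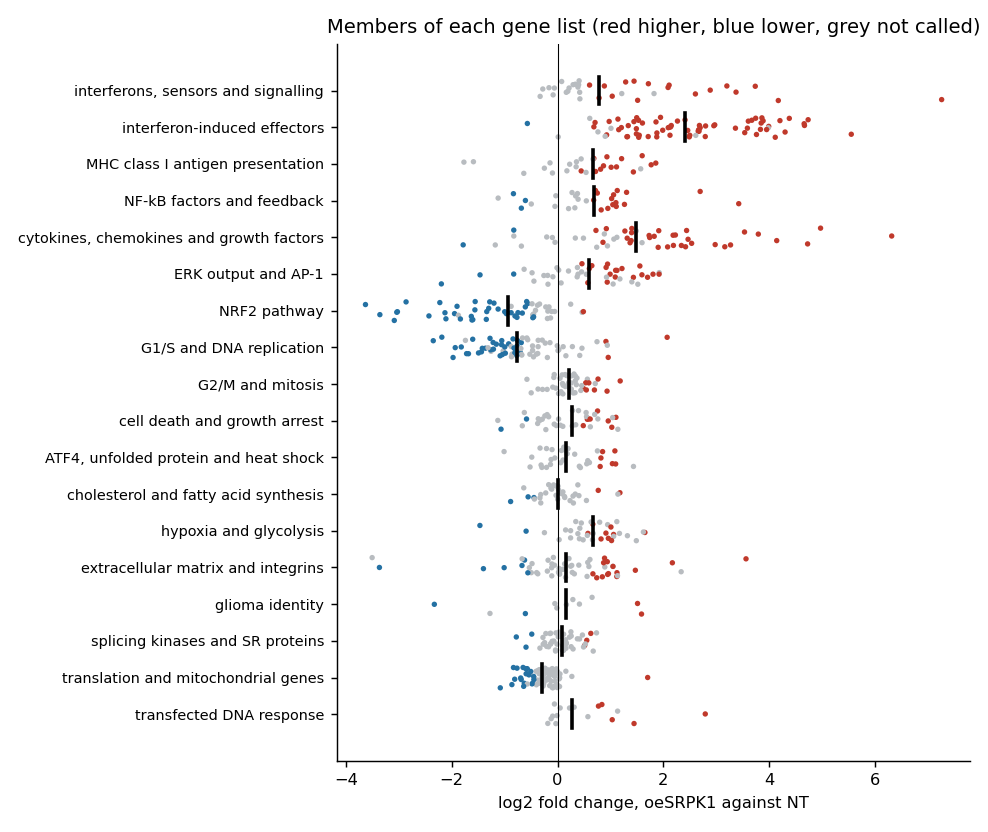
Log2 fold change between oeSRPK1 and NT (horizontal) of every tested member of 18 gene groups, 1 row per group, red where called higher, blue where called lower and grey where not called. Black bars are group medians, at 2.41 for interferon-induced effectors and -0.94 for the NRF2 pathway.

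The ERK pathway and its AP-1 factors held calls both ways. Of 43 tested genes 18 passed as higher and 3 as lower (41.9% and 6.98%, against 11.2% and 9.45% of genes tested; median 0.60). EGFR, the receptor upstream of ERK that is often amplified in glioblastoma, rose from 304 and 318 to 1213 and 957 CPM (1.80 ± 0.16, edgeR adjusted p = 0.000596). Feedback inhibitors passed in 7 of 14 cases: SPRY2 stood at 27.6 and 33.0 CPM in NT and 84.7 and 78.8 CPM in oeSRPK1 (1.43 ± 0.13, edgeR adjusted p = 0.000820) and the ERK phosphatase DUSP6 at 12.2 and 11.4 CPM in NT and 27.4 and 27.4 CPM in oeSRPK1 (1.22 ± 0.16), while SPRY4 did not pass (59.2 and 55.9 CPM in NT and 64.2 and 55.6 CPM in oeSRPK1). The AP-1 partner MAFF stood at 68.1 and 76.7 CPM in NT and 281 and 267 CPM in oeSRPK1 (1.92 ± 0.16, edgeR adjusted p = 0.000556), JUN changed by 0.46 ± 0.12, and FOS did not pass (1.46 and 3.74 CPM in NT and 1.35 and 3.36 CPM in oeSRPK1). EGR1, an immediate early gene that ERK induces, fell from 20.5 and 21.3 to 4.41 and 4.91 CPM (-2.19 ± 0.17, edgeR adjusted p = 0.000441). The other 2 lower calls, named after their values were seen, were PDGFRA (-1.46 ± 0.34) and NRP2 (-0.83 ± 0.21). Higher calls numbered 5 without oeSRPK1 1, 11 without oeSRPK1 2, 6 without NT 1, 7 without NT 2, 28 without shSRPK1 1 and 28 without shSRPK1 2. Lower calls numbered 1 without oeSRPK1 1, 1 without oeSRPK1 2, 1 without NT 1, 1 without NT 2, 6 without shSRPK1 1 and 6 without shSRPK1 2. When 1 of the bracketed libraries was left out, the calls on DUSP6 (NT 2, oeSRPK1 1) and JUN, PDGFRA and NRP2 (NT 1, NT 2, oeSRPK1 1, oeSRPK1 2) were lost (edgeR adjusted p up to 0.281).

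Most detoxifying enzymes of the NRF2 pathway fell, while its regulators and its iron and heme genes mostly did not pass. Of 55 tested genes 37 passed as lower (67.3%, against 9.45% of genes tested) and 1 as higher, with a median change of -0.94. NFE2L2, which encodes NRF2, did not pass (689 and 702 CPM in NT and 573 and 527 CPM in oeSRPK1, -0.34 ± 0.18). Detoxifying enzymes passed as lower in 19 of 23 cases. NQO1, a quinone reductase, fell from 3639 and 3742 to 735 and 956 CPM, 4.37 times lower (-2.13 ± 0.24, edgeR adjusted p = 0.00166). The aldo-keto reductases AKR1C1, AKR1C2 and AKR1C3 are close in sequence, so reads could be split between them. AKR1C1 stood at 1595 and 1566 CPM in NT and 144 and 231 CPM in oeSRPK1 (-3.08 ± 0.33, edgeR adjusted p = 0.00226), AKR1C2 changed by -3.04 ± 0.34 and AKR1C3 by -2.86 ± 0.32. AKR1B1, which reduces glucose to sorbitol, fell from 1690.3 and 1946 to 536 and 641 CPM (-1.63 ± 0.16). Glutathione genes passed as lower in 11 of 16 cases. MGST1, a glutathione transferase of membranes, fell from 343 and 328 to 95.8 and 127 CPM (-1.60 ± 0.16, edgeR adjusted p = 0.000976). GCLM, the regulatory subunit of the first enzyme of glutathione synthesis, stood at 307 and 291 CPM in NT and 62.7 and 77.0 CPM in oeSRPK1 (-2.11 ± 0.48, edgeR adjusted p = 0.0368). Of the thioredoxin genes 5 of 6 passed as lower, and the peroxiredoxin PRDX1 fell from 1399 and 1352 to 493 and 591 CPM (-1.35 ± 0.14, edgeR adjusted p = 0.00142). Iron and heme genes passed in 1 of 5 cases. HMOX1, the inducible heme oxygenase, did not pass (29.1 and 22.5 CPM in NT and 21.9 and 23.5 CPM in oeSRPK1). The 1 gene called higher, named after its values were seen, was the glutathione peroxidase GPX1 (0.49 ± 0.12). Lower calls numbered 9 without oeSRPK1 1, 19 without oeSRPK1 2, 15 without NT 1 and 16 without NT 2. With a bracketed library left out, the calls on NQO1 (oeSRPK1 1) and GCLM and GPX1 (NT 1, NT 2, oeSRPK1 1, oeSRPK1 2) were lost, at an edgeR adjusted p of up to 0.250.

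The antioxidant response element of GCLM lies close to its start. Capitals mark the match to TGAC, any 3 bases and GCA, here on the opposite strand, in the last 170 bases before the RefSeq start (GRCh38.p14, chr1:93909431-93909600, minus strand).
GCLM: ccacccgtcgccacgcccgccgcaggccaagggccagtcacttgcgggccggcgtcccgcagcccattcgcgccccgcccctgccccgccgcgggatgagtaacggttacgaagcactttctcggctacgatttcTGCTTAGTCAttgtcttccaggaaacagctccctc
The match began 35 bases before the start. In the 250 bases before the start, 4 of the 41 NRF2-pathway promoters in the table held this motif (9.76%), against 2.65% of all promoters. The share was larger in the MHC class I group (3 of 25 promoters). It was 8.77% in the interferon effectors and 8.33% in the glioma genes, so the motif was not particular to the NRF2 group. A match was in 2.32% of promoters of genes tested, 2.22% of those of genes called lower and 2.74% of those of genes called higher.

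Of 72 tested genes of G1/S and DNA replication 34 passed as lower (47.2%, against 9.45%) and 3 as higher (median -0.77). Origin licensing genes passed as lower in 7 of 16 cases, and MCM6, a subunit of the replicative helicase, stood at 92.7 and 74.5 CPM in NT and 14.2 and 20.2 CPM in oeSRPK1 (-2.35 ± 0.38, edgeR adjusted p = 0.0106). Polymerase and fork genes passed in 13 of 22 cases: PCNA, the sliding clamp, fell from 219 and 192 to 78.5 and 99.5 CPM (-1.22 ± 0.19, edgeR adjusted p = 0.00532). Nucleotide genes passed in 5 of 8 cases. TYMS, which makes thymidylate, changed by -1.05 ± 0.21, and UNG, the glycosylase that removes uracil from DNA, stood at 49.5 and 41.5 CPM in NT and 11.2 and 12.2 CPM in oeSRPK1 (-1.97 ± 0.16, edgeR adjusted p = 0.000454). CDCA7, a chromatin factor induced by E2F, fell from 129.5 and 118 to 26.9 and 27.7 CPM (-2.19 ± 0.20, edgeR adjusted p = 0.000755). Of the regulators, E2F1 fell from 89.1 and 68.6 to 18.5 and 28.2 CPM (-1.82 ± 0.30) and the repressor E2F7 rose from 115 and 118 to 537 and 443 CPM (2.07 ± 0.14, edgeR adjusted p = 0.000392). CDKN1A, the cyclin-dependent kinase inhibitor p21, stood at 59.6 and 67.6 CPM in NT and 128 and 119 CPM in oeSRPK1 (0.96 ± 0.13). The third gene called higher, named after its values were seen, was CDK6 (0.91 ± 0.13). Lower calls numbered 2 without oeSRPK1 1, 15 without oeSRPK1 2, 6 without NT 1, 11 without NT 2, 56 without shSRPK1 1 and 57 without shSRPK1 2, and higher calls 1 without oeSRPK1 1, 1 without NT 1, 6 without shSRPK1 1 and 6 without shSRPK1 2. Leaving out 1 of the libraries in brackets ended the calls on MCM6, TYMS and CDK6 (NT 1, NT 2, oeSRPK1 1) and PCNA, E2F1 and CDKN1A (NT 1, oeSRPK1 1), at an edgeR adjusted p of up to 0.142.

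Of 45 tested G2/M genes 8 passed as higher (17.8%, against 11.2%) and 0 as lower (median 0.22). UBE2C, the ubiquitin-conjugating enzyme of the anaphase-promoting complex, stood at 63.8 and 71.0 CPM in NT and 152 and 154 CPM in oeSRPK1 (1.18 ± 0.13, edgeR adjusted p = 0.00150) and SMC4, a condensin subunit, at 177 and 164 CPM in NT and 326 and 325 CPM in oeSRPK1 (0.94 ± 0.12). CCNB1, the mitotic cyclin, changed by 0.77 ± 0.14. CDK1 did not pass (84.1 and 90.0 CPM in NT and 72.7 and 79.9 CPM in oeSRPK1), nor did the proliferation marker MKI67 (129 and 92.4 CPM in NT and 115 and 130.3 CPM in oeSRPK1). Higher calls numbered 1 without oeSRPK1 1, 2 without oeSRPK1 2, 2 without NT 1, 1 without NT 2, 18 without shSRPK1 1 and 18 without shSRPK1 2. The calls on SMC4 (NT 2, oeSRPK1 1) and CCNB1 (NT 1, NT 2, oeSRPK1 1, oeSRPK1 2) did not hold when 1 of the bracketed libraries was left out (edgeR adjusted p up to 0.114).

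The MCM6 promoter holds the E2F element at 2 places. Capitals mark TTTCGCGC or TTTGGCGC on either strand, where 2 matches overlap at each place, in the last 170 bases before the RefSeq start (GRCh38.p14, chr2:135876444-135876613, minus strand).
MCM6: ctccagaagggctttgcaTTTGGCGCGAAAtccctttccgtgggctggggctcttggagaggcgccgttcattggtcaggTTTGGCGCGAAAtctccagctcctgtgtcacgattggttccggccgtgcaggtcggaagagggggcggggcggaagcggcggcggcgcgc
The first match began 152 bases before the start. In the 250 bases before the start, 16.7% of the 60 G1/S promoters in the table held this element, against 0.996% of all promoters.

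**Figure D4:**
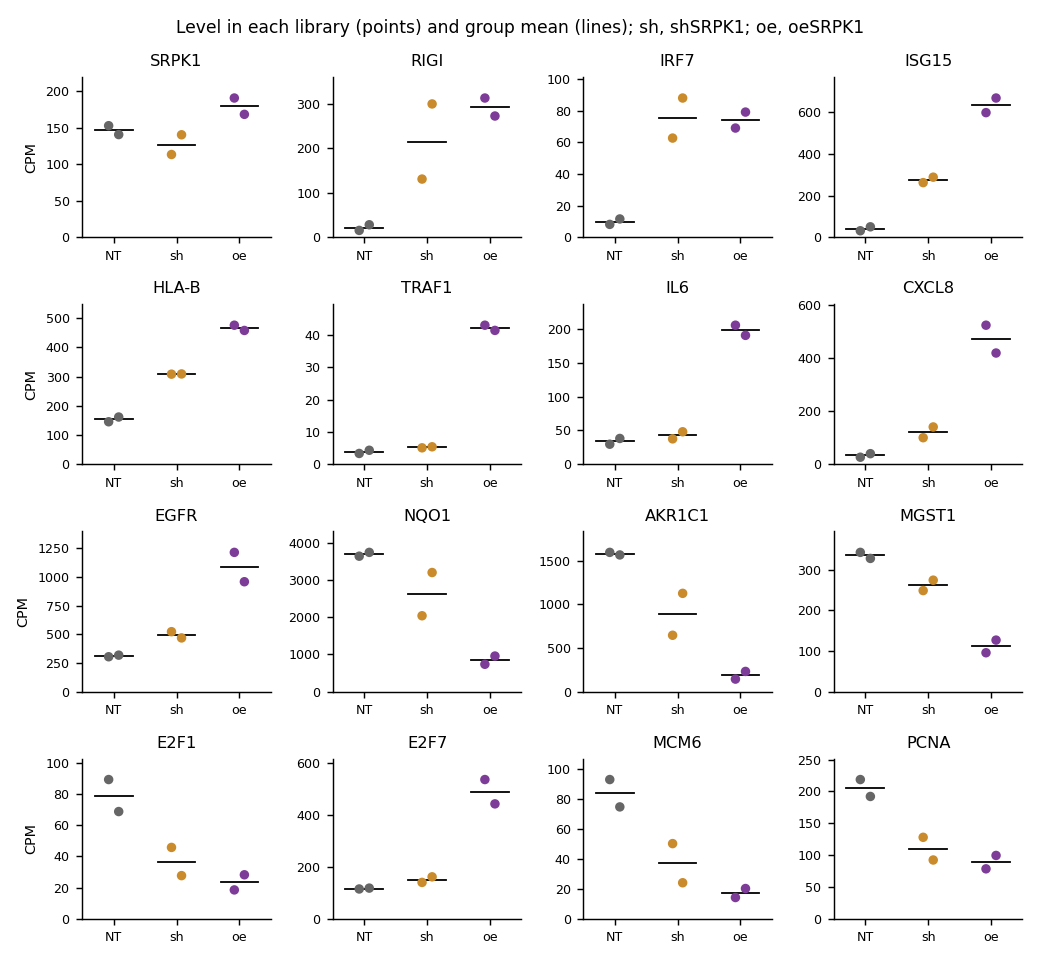
Level (CPM, axis from 0) of 16 genes in each library of NT, shSRPK1 (sh) and oeSRPK1 (oe), with group means as lines. Both oeSRPK1 libraries lie above both NT libraries for ISG15, IL6, EGFR and E2F7 and below them for NQO1, MGST1, MCM6 and PCNA.

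Of 37 tested genes of cell death and growth arrest, 8 passed as higher and 2 as lower (21.6% and 5.41%, against 11.2% and 9.45% of genes tested; median 0.28). The death receptor gene TNFRSF10B rose from 278 and 288 to 643 and 574 CPM (1.10 ± 0.24) and ZMAT3, an RNA-binding protein, fell from 114 and 106 to 56.4 and 47.8 CPM (-1.07 ± 0.18, edgeR adjusted p = 0.00740). The survival genes MCL1 and BCL2L1 rose, MCL1 from 275 and 307 to 631 and 553 CPM (1.03 ± 0.13, edgeR adjusted p = 0.00276) and BCL2L1 by 0.62 ± 0.11. The other gene called lower, named after its values were seen, was the death agonist BID (-0.59 ± 0.17). Higher calls numbered 0 without oeSRPK1 1, 3 without oeSRPK1 2, 0 without NT 1, 2 without NT 2, 18 without shSRPK1 1 and 18 without shSRPK1 2. Calls of genes lower in oeSRPK1 numbered 0 without oeSRPK1 1, 0 without oeSRPK1 2, 0 without NT 1, 0 without NT 2, 9 without shSRPK1 1 and 9 without shSRPK1 2. Single left-out libraries, in brackets, ended the calls on TNFRSF10B, ZMAT3 and BID (NT 1, NT 2, oeSRPK1 1, oeSRPK1 2), MCL1 (NT 1, oeSRPK1 1) and BCL2L1 (NT 1, NT 2, oeSRPK1 1) (edgeR adjusted p up to 0.236).

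Stress of the endoplasmic reticulum and of amino acid supply gave 6 higher calls among 33 tested genes and 0 lower (18.2% and 0%, against 11.2% and 9.45% of genes tested). HSPA5, the chaperone BiP, rose from 2177 and 2156 to 3969.6 and 3851 CPM (0.85 ± 0.14, edgeR adjusted p = 0.00621) and DNAJB9, its co-chaperone, by 1.04 ± 0.19. SLC7A5, a large neutral amino acid transporter, stood at 724 and 619.9 CPM in NT and 1502 and 1348 CPM in oeSRPK1 (1.08 ± 0.22), while ATF4 itself did not pass (655 and 663 CPM in NT and 782 and 714 CPM in oeSRPK1). VLDLR, a lipoprotein receptor, changed by 1.10 ± 0.13. Heat shock genes passed in 0 of 8 cases. Higher calls numbered 0 without oeSRPK1 1, 1 without oeSRPK1 2, 1 without NT 1, 1 without NT 2, 14 without shSRPK1 1 and 14 without shSRPK1 2. When 1 of the bracketed libraries was left out, the calls on HSPA5, DNAJB9 and SLC7A5 (NT 1, NT 2, oeSRPK1 1, oeSRPK1 2) and VLDLR (oeSRPK1 1) were lost (edgeR adjusted p up to 0.152).

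Of 34 tested hypoxia and glycolysis genes 9 passed as higher and 2 as lower (26.5% and 5.88%, against 11.2% and 9.45% of genes tested; median 0.66). P4HA1, a collagen prolyl hydroxylase that hypoxia induces, rose from 289 and 368 to 719 and 614 CPM (1.02 ± 0.18, edgeR adjusted p = 0.00801), and LDHA, lactate dehydrogenase, by 0.96 ± 0.23. The carbonic anhydrases went opposite ways, CA9 at 43.7 and 68.2 CPM in NT and 192 and 159.8 CPM in oeSRPK1 (1.65 ± 0.41) and CA12 at 286 and 288 CPM in NT and 104 and 104 CPM in oeSRPK1 (-1.47 ± 0.13, edgeR adjusted p = 0.000608). HIF1A fell by 0.59 on the log2 scale (edgeR adjusted p = 0.0397). Higher calls numbered 0 without oeSRPK1 1, 1 without oeSRPK1 2, 0 without NT 1, 0 without NT 2, 25 without shSRPK1 1 and 26 without shSRPK1 2. Lower calls numbered 1 without oeSRPK1 1, 1 without oeSRPK1 2, 1 without NT 1 and 1 without NT 2. With a bracketed library left out, the calls on P4HA1 (NT 1, NT 2, oeSRPK1 1) and LDHA, CA9 and HIF1A (NT 1, NT 2, oeSRPK1 1, oeSRPK1 2) were lost, at an edgeR adjusted p of up to 0.218.

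Cholesterol and fatty acid synthesis showed 2 higher and 3 lower calls among 32 tested genes (6.25% and 9.38%, against 11.2% and 9.45% of genes tested), with a median change of 0.01. The cholesterol transporter STARD4 rose by 1.18 ± 0.28. ACACA, which makes malonyl-CoA, stood at 58.2 and 47.5 CPM in NT and 27.7 and 29.7 CPM in oeSRPK1 (-0.89 ± 0.14, edgeR adjusted p = 0.00575), and the desaturase FADS1 changed by -0.56 ± 0.13. The third gene called lower, named after its values were seen, was SCAP, the escort of SREBP (-0.44 ± 0.12). Higher calls numbered 0 without oeSRPK1 1, 0 without oeSRPK1 2, 0 without NT 1, 0 without NT 2, 6 without shSRPK1 1 and 6 without shSRPK1 2. Calls of genes lower in oeSRPK1 numbered 0 without oeSRPK1 1, 1 without oeSRPK1 2, 0 without NT 1, 1 without NT 2, 5 without shSRPK1 1 and 5 without shSRPK1 2. Leaving out 1 of the libraries in brackets ended the calls on STARD4, FADS1 and SCAP (NT 1, NT 2, oeSRPK1 1, oeSRPK1 2) and ACACA (NT 1, oeSRPK1 1), at an edgeR adjusted p of up to 0.238.

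Extracellular matrix genes moved both ways, with 14 higher and 6 lower of 57 tested (24.6% and 10.5%, against 11.2% and 9.45% of genes tested; median 0.15). TNC, the glycoprotein tenascin-C that gliomas often deposit, rose from 17.5 and 21.3 to 99.3 and 73.9 CPM (2.17 ± 0.19, edgeR adjusted p = 0.000682), FN1, fibronectin, by 0.95 ± 0.19 and TIMP3, an inhibitor of matrix metalloproteases, from 32.6 and 33.5 to 65.3 and 72.1 CPM (1.05 ± 0.13). COL7A1, the collagen of anchoring fibrils, stood at 407 and 466 CPM in NT and 961 and 942 CPM in oeSRPK1 (1.12 ± 0.14), and the integrin subunit ITGA2 changed by 1.12 ± 0.19. POSTN, periostin, fell from 14.0 and 10.3 to 0.990 and 1.81 CPM (-3.36 ± 0.82, edgeR adjusted p = 0.0393). COL1A1 did not pass and differed between the duplicates (3.98 and 2.40 CPM in NT, 6.93 and 29.2 CPM in oeSRPK1). TGFBR1, a receptor of TGF-beta, rose by 0.89 ± 0.14, and TGFB1 did not pass (60.8 and 63.4 CPM in NT and 52.4 and 66.7 CPM in oeSRPK1). Higher calls numbered 3 without oeSRPK1 1, 9 without oeSRPK1 2, 2 without NT 1, 3 without NT 2, 24 without shSRPK1 1 and 23 without shSRPK1 2. Calls of genes lower in oeSRPK1 numbered 0 without oeSRPK1 1, 0 without oeSRPK1 2, 0 without NT 1, 0 without NT 2, 13 without shSRPK1 1 and 13 without shSRPK1 2. The calls on FN1 and POSTN (NT 1, NT 2, oeSRPK1 1, oeSRPK1 2), COL7A1 (NT 1, oeSRPK1 1) and ITGA2 and TGFBR1 (NT 1, NT 2, oeSRPK1 1) did not hold when 1 of the bracketed libraries was left out (edgeR adjusted p up to 0.263).

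Of 11 tested glioma genes 2 passed as higher and 2 as lower (18.2% and 18.2%, against 11.2% and 9.45% of genes tested). SOX9, a transcription factor of glial progenitors, rose from 86.8 and 91.7 to 265 and 244 CPM (1.51 ± 0.12, edgeR adjusted p = 0.000454), and OLIG2, of the oligodendrocyte lineage, had low levels, 1.17 and 0.777 CPM in NT and 3.28 and 2.07 CPM in oeSRPK1 (1.59 ± 0.39). OLIG2 reached the filter on low counts only through libraries of transfected cells, so its call is no support for a rise. CHI3L1, a secreted lectin linked to the mesenchymal subtype, stood at 10.2 and 15.2 CPM in NT and 2.61 and 2.33 CPM in oeSRPK1 (-2.33 ± 0.27, edgeR adjusted p = 0.00171). MGMT, the enzyme that repairs alkylated guanine, stood at 16.0 and 16.1 CPM in NT and 10.2 and 11.1 CPM in oeSRPK1 (-0.61 ± 0.16). Higher calls numbered 1 without oeSRPK1 1, 1 without oeSRPK1 2, 1 without NT 1, 1 without NT 2, 5 without shSRPK1 1 and 5 without shSRPK1 2. Calls of genes lower in oeSRPK1 numbered 0 without oeSRPK1 1, 1 without oeSRPK1 2, 1 without NT 1 and 1 without NT 2. Single left-out libraries, in brackets, ended the calls on OLIG2 and MGMT (NT 1, NT 2, oeSRPK1 1, oeSRPK1 2) and CHI3L1 (oeSRPK1 1) (edgeR adjusted p up to 0.367).

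Of 50 tested splicing genes 3 passed as higher and 3 as lower (6.00% each, against 11.2% and 9.45% of genes tested), with a median change of 0.09. SRSF1, an SR protein that SRPK1 phosphorylates, did not pass (209 and 226 CPM in NT and 232 and 239 CPM in oeSRPK1, 0.12 ± 0.12), and SR proteins passed as higher in 0 and as lower in 3 of 23 cases (13.0% lower). CLK1, a nuclear kinase of the same proteins, rose from 72.3 and 86.6 to 114 and 119 CPM (0.55 ± 0.14, edgeR adjusted p = 0.0256), and HNRNPM, which binds intronic sequence, from 132 and 122 to 190.0 and 203 CPM (0.63 ± 0.11). SRRM1 fell from 143 and 167 to 92.2 and 88.1 CPM (-0.78 ± 0.13) and LUC7L3 from 461 and 525 to 326 and 326 CPM (-0.60 ± 0.13). The others called, named after their values were seen, were RBFOX2 (0.51 ± 0.13) and LUC7L (-0.49 ± 0.14). Gene counts carry no information on exon use, and phosphorylation was not measured. Higher calls numbered 0 without oeSRPK1 1, 0 without oeSRPK1 2, 0 without NT 1, 0 without NT 2, 10 without shSRPK1 1 and 10 without shSRPK1 2. Calls of genes lower in oeSRPK1 numbered 0 without oeSRPK1 1, 0 without oeSRPK1 2, 1 without NT 1, 0 without NT 2, 7 without shSRPK1 1 and 7 without shSRPK1 2. When 1 of the bracketed libraries was left out, the calls on CLK1, HNRNPM, LUC7L3, RBFOX2 and LUC7L (NT 1, NT 2, oeSRPK1 1, oeSRPK1 2) and SRRM1 (NT 2, oeSRPK1 1, oeSRPK1 2) were lost (edgeR adjusted p up to 0.271).

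Translation and mitochondrial genes passed as lower in 20 of 84 cases (23.8%, against 9.45%) and as higher in 1 (median -0.30). Transcripts encoded in the mitochondrion were lower in 9 of 15 cases, among them MT-ND5, a subunit of complex I, at 2468 and 2409 CPM in NT and 1056 and 1249.9 CPM in oeSRPK1 (-1.08 ± 0.17, edgeR adjusted p = 0.00626). Ribosomal protein genes were lower in 8 of 37 cases, and RPS6 fell from 904 and 924 to 586 and 644 CPM (-0.57 ± 0.13). The 1 gene called higher was PPARGC1A, a coactivator of mitochondrial gene programmes, at 2.04 and 2.05 CPM in NT and 6.03 and 7.75 CPM in oeSRPK1 (1.70 ± 0.29). Lower calls numbered 0 without oeSRPK1 1, 3 without oeSRPK1 2, 0 without NT 1, 0 without NT 2, 54 without shSRPK1 1 and 54 without shSRPK1 2, and higher calls 0 without oeSRPK1 1, 0 without NT 1 and 0 without NT 2. With a bracketed library left out, the calls on MT-ND5 and PPARGC1A (NT 1, NT 2, oeSRPK1 1) and RPS6 (NT 1, NT 2, oeSRPK1 1, oeSRPK1 2) were lost, at an edgeR adjusted p of up to 0.183.

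Genes called in the same direction also lay next to each other. Neighbours on a chromosome, among tested genes ordered by start, were called the same way in 20 runs of at least 4. Over all genes tested, 11.2% were called higher and 9.45% lower, and no expected number of runs was computed. The runs named here were mostly picked for gene families. Others held no family, such as ARHGAP26, NR3C1, YIPF5 and PRELID2 on chromosome 5 and TLN2, TPM1, LACTB, RPS27L and RAB8B on chromosome 15. On chromosome 10 (chr10:89283765-89421001, GENCODE 29 on GRCh38) the run held IFIT3, IFIT1 and IFIT5 (log2 changes 1.71 to 4.20). On chromosome 2 the genes SP110, SP140, SP140L and SP100 of nuclear body proteins rose with 2 neighbours (chr2:230167293-230821075, 0.85 to 3.56), and IL1A, IL1B and IL36B of the interleukin-1 cluster with another 2 (chr2:112645857-113052867, 0.62 to 5.23). On chromosome 6 a run of 7 genes rose (chr6:26277609-26476621, 0.66 to 1.80). It held the histone gene H4C8 and BTN3A2, BTN2A2, BTN3A1, BTN2A3P, BTN3A3 and BTN2A1 of the butyrophilin cluster. Among runs of lower calls, AKR1B1, AKR1B10, AKR1B15 and BPGM lay on chromosome 7 (chr7:134442350-134679813, -3.02 to -0.65) and the cation exporters SLC47A1 and SLC47A2 with the aldehyde dehydrogenases ALDH3A1 and ALDH3A2 on chromosome 17 (chr17:19495385-19748943, -3.63 to -2.22). Members of such families are close in sequence, and strand is not given for the counts, so reads of overlapping neighbours cannot be separated. Leaving out 1 of the libraries in brackets ended the calls on AKR1B10 (NT 1, NT 2, shSRPK1 1, shSRPK1 2, oeSRPK1 1), AKR1B15, ALDH3A1, SLC47A1 and SLC47A2 (oeSRPK1 1), BPGM and SP140 (NT 1, NT 2, oeSRPK1 1, oeSRPK1 2), IFIT1 (NT 1), IFIT3, IFIT5, SP110 and SP140L (NT 1, NT 2, oeSRPK1 1) and IL36B (NT 1, NT 2), at an edgeR adjusted p of up to 0.240.

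Cells that received the hairpin vector were set beside these results, as a transfected group with another plasmid. Between oeSRPK1 and shSRPK1, 3361 genes passed (22.8%), 1690 higher in oeSRPK1 (11.5%) and 1671 lower (11.3%). Both counts moved with single libraries: higher and lower calls numbered 106 and 38 without oeSRPK1 1, 503 and 452 without oeSRPK1 2, 781 and 795 without NT 1, 745 and 755 without NT 2, 2538 and 2938 without shSRPK1 1, and 2843 and 3309 without shSRPK1 2. The comparisons of oeSRPK1 and of shSRPK1 with NT share the NT libraries, so the direct test between the transfected groups is given here. Of the 73 interferon effectors 13 were higher in oeSRPK1 than in shSRPK1 and 2 lower, against 11.5% and 11.3% of genes tested. Higher calls among them numbered 0 without oeSRPK1 1, 2 without oeSRPK1 2, 8 without NT 2 and 41 without shSRPK1 2, and lower calls 1 without NT 1 or NT 2, 11 without shSRPK1 1, 4 without shSRPK1 2 and 0 without oeSRPK1 1 or oeSRPK1 2. ISG15 stood at 262 and 288 CPM in shSRPK1, below oeSRPK1 (1.20 ± 0.21, edgeR adjusted p = 0.00811). That call was lost without shSRPK1 1, oeSRPK1 1 or oeSRPK1 2 (edgeR adjusted p up to 0.0945). MX1, at 311 and 516 CPM in shSRPK1, did not pass between the transfected groups (-0.52 ± 0.32, edgeR adjusted p = 0.271). Against NT, 58 of the 73 effectors were also called higher in shSRPK1 (median change 1.84), as were 800 of all 14732 genes tested. Of the 35 tested genes of sensing and interferon signalling, 14 were called higher in shSRPK1 against NT.

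In the cytokine group 25 of 49 genes were higher in oeSRPK1 than in shSRPK1 and 2 lower, against 11.5% and 11.3% of genes tested. IL6 stood at 37.7 and 48.1 CPM in shSRPK1, against 205 and 190.0 CPM in oeSRPK1 (2.21 ± 0.17, edgeR adjusted p = 0.000684). TRAF1, of the NF-kB group, stood at 5.14 and 5.45 CPM in shSRPK1 (edgeR adjusted p = 0.000311), BIRC3 at 226 and 190.2 CPM (2.67 ± 0.18) and CSF2 at 3.55 and 1.72 CPM (3.18 ± 0.29). For these 4 genes both hairpin libraries lay far below both oeSRPK1 libraries, and the calls held with each library left out. Over the cytokine group higher calls numbered 7 without oeSRPK1 1 and 15 without oeSRPK1 2, and lower calls 8 without shSRPK1 1, 6 without shSRPK1 2 and 1 without oeSRPK1 1 or oeSRPK1 2. EGFR, at 522 and 468 CPM in shSRPK1, was higher in oeSRPK1 (1.13 ± 0.15, edgeR adjusted p = 0.00373), a call lost without oeSRPK1 1 (edgeR adjusted p = 0.0760). SPRY2 stood at 19.9 and 18.4 CPM in shSRPK1 (2.10 ± 0.14, edgeR adjusted p = 0.000560).

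Of the 55 NRF2 genes 31 were lower in oeSRPK1 than in shSRPK1 and 3 higher, against 11.3% and 11.5% of genes tested. NQO1 stood at 2039 and 3200.3 CPM in shSRPK1 (-1.63 ± 0.24, edgeR adjusted p = 0.00446), a call lost without oeSRPK1 1 (edgeR adjusted p = 0.0938). Lower calls in the group numbered 2 without oeSRPK1 1 and 18 without oeSRPK1 2, and higher calls 7 without shSRPK1 2, 0 without oeSRPK1 1 and 2 without oeSRPK1 2. Of the cell cycle genes, MCM6 stood at 50.1 and 24.0 CPM in shSRPK1, between the levels of NT and oeSRPK1, and E2F7 at 140.2 and 162 CPM, below oeSRPK1 (1.70 ± 0.14, edgeR adjusted p = 0.00110). SCD, a fatty acid desaturase, stood at 184 and 199.9 CPM in NT, 756 and 440.1 CPM in shSRPK1 and 189 and 217 CPM in oeSRPK1, so that only the hairpin libraries were high among the 6 (-1.56 ± 0.24, edgeR adjusted p = 0.00667). CLK1 stood at 208 and 179.6 CPM in shSRPK1, above oeSRPK1 (-0.73 ± 0.13, edgeR adjusted p = 0.00953). Without oeSRPK1 1 the calls on SCD and CLK1 were lost, and without oeSRPK1 2 that on CLK1 (edgeR adjusted p up to 0.124).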

How the data were processed

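Each library came as 1 table in which the authors deposited raw counts, whole numbers of reads by gene. Per the submitters' processing notes, FastQC, Trimmomatic and STAR 2.5.3 were used with hg38. The counting tool, annotation release and strand setting are not given in the sources used here. The 5 entries of each table that name no gene were kept out; reads in no feature were 8.13% to 11.1% and ambiguous reads 3.04% to 3.37% of the total. Symbols came from a gene name table by stable ID, then from GENCODE 29 (GRCh38), which also gave positions.

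Tests used R 4.3.3 and edgeR 4.0.16: filterByExpr by group (minimum count 10, total 15), TMM, robust glmQLFit over all 6 libraries and glmQLFTest, with a Benjamini-Hochberg adjusted p under 0.05 as a call. The 14732 genes tested held 99.8% of gene reads. Intervals of read shares and the floor of 3 reads cover counting error only, since reads carried no molecular identifiers. Promoters of RefSeq (GRCh38.p14) were matched by symbol and searched over 250 bases. Tables and plots used Python 3.11.15.

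The members and the gene lists were chosen with earlier results of these data known. Named genes were SRPK1, genes marked as key in each list, from each list up to 4 calls of smallest adjusted p, and, where libraries did not overlap and mean log2 CPM reached 1, the 15 strongest calls each way, and muscle genes with at least 10 reads. Some were left out for length, and some are not reported here. The results were recomputed with size factors of DESeq2, with upper-quartile scaling, no filter, a stricter filter, DESeq2 1.42.0, limma-voom (limma 3.58.1), only the NT and oeSRPK1 libraries, a replicate block, thinning to the shallowest library, the muscle list left out, an adjusted p under 0.01, a 2-fold minimum, and each library left out, where the remaining single library is taken to vary as the other groups do. The steps were tested on simulated data. False calls exceeded the nominal rate where genes far above the trend in spread were simulated.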

Additional observations from a re-analysis of the deposited data

How the results depend on the processing

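As reported, 1644 genes were called higher, 1392 lower and 343 list members either way. With 1 library left out these counts ran from 216 to 3058, from 69 to 3363 and from 109 to 567. The fit of only the NT and oeSRPK1 libraries called 3090, 3241 and 559. An adjusted p under 0.01 left 585, 403 and 188, and a 2-fold minimum left 729, 503 and 213. Without a filter on low counts 2179 genes were lower. The common spread between duplicates in the fit, as a biological coefficient of variation, was 14.5% over all 6 libraries. It was 8.65% in the fit of only the NT and oeSRPK1 libraries. Apart from the stricter rule itself, the cause of these shifts was not tested. The remaining alternatives stayed within 1.5 times of each of these 3 counts. Within gene groups, the fit of only the NT and oeSRPK1 libraries gave higher calls of 14 in place of 6 for ATF4 and unfolded protein genes, 28 in place of 18 for ERK, 6 in place of 3 for G1/S, 18 in place of 8 for G2/M, 6 in place of 2 for cholesterol, 25 in place of 14 for matrix, 5 in place of 2 for glioma, 26 in place of 9 for hypoxia, 17 in place of 8 for cell death, 12 in place of 3 for splicing and 2 in place of 1 for NRF2. Lower calls became 56 in place of 34 for G1/S, 53 in place of 20 for translation and mitochondrial genes, 13 in place of 6 for matrix, 8 in place of 2 for cell death, 7 in place of 3 for splicing, 6 in place of 2 for cytokines, and 5 in place of 3 for ERK, NF-kB and cholesterol. Without a filter higher calls were 14 for hypoxia, 13 for cell death, 7 for splicing and 2 for NRF2, and lower calls 7 for cell death, 5 for cholesterol and 4 for cytokines. With the block 5 G2/M genes were higher, and 13 translation, 1 glioma and 1 hypoxia genes lower. Upper-quartile scaling left 5 G2/M genes higher, the stricter filter 1 glioma gene higher, DESeq2 1 glioma gene lower and limma-voom 1 cell death gene lower. Thinning left 3 matrix, 1 glioma, 1 cytokine and 0 effector genes lower. The same-numbered libraries did not deviate together (correlations of deviations 0.010, -0.019 and 0.023), so the numbers are not taken to pair samples. With the replicate number as a block, 1467 genes were called higher and 1172 lower. Of 147 calls between oeSRPK1 and NT on genes named in the text, 67, 77, 142, 142, 61 and 107 were kept without NT 1, NT 2, shSRPK1 1, shSRPK1 2, oeSRPK1 1 and oeSRPK1 2, and 144 with the block. No call on a gene named in the text turned direction. With 1 library left out, genes that did not pass changed sign, over these ranges of log2 change: FOS (as reported -0.48, -0.98 to 0.44, turned without NT 2 or oeSRPK1 1), MKI67 (as reported 0.15, -0.084 to 0.40, turned without NT 2), PSMB9 (as reported 0.67, -0.45 to 1.48, turned without oeSRPK1 2), SCD (as reported 0.08, -0.026 to 0.15, turned without oeSRPK1 2), SPRY4 (as reported 0.07, -0.082 to 0.16, turned without oeSRPK1 1) and TGFB1 (as reported -0.08, -0.25 to 0.070, turned without oeSRPK1 1). The depth of oeSRPK1 2 limits genes near its floor of 0.771 CPM. No alternative moved the median change of all genes by more than 0.05.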

Other observations

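Several of the largest changes lay outside the gene groups described above. SLC47A1 and SLC47A2, exporters of organic cations, fell, SLC47A1 from 20.4 and 18.6 to 1.80 and 1.81 CPM (-3.43 ± 0.38, edgeR adjusted p = 0.00165) and SLC47A2 by -2.90 ± 0.31. GNAL, the olfactory G protein alpha subunit, stood at 19.9 and 15.4 CPM in NT and 2.52 and 3.10 CPM in oeSRPK1 (-2.71 ± 0.31, edgeR adjusted p = 0.00179). RNF157, a ubiquitin ligase, stood at 10.7 and 5.72 CPM in NT and 1.08 and 1.03 CPM in oeSRPK1 (-2.91 ± 0.40). SAA1, an acute phase protein, was among the largest rises, at 0.388 and 0.706 CPM in NT and 8.46 and 9.82 CPM in oeSRPK1 (3.97 ± 0.94, edgeR adjusted p = 0.0328). SAA1 reached the filter on low counts only through libraries of transfected cells, so its call is no support for a rise. The calls on SLC47A1, SLC47A2, GNAL and RNF157 (oeSRPK1 1) and SAA1 (NT 1, NT 2, oeSRPK1 1, oeSRPK1 2) did not hold when 1 of the bracketed libraries was left out (edgeR adjusted p up to 0.213).

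Genes on no list, chosen after their values were seen for a small adjusted p, were CTSS, a lysosomal protease of antigen processing, at 17.8 and 23.5 CPM in NT and 155 and 134 CPM in oeSRPK1 (2.81 ± 0.17, edgeR adjusted p = 0.000294), and LAP3, an aminopeptidase, at 51.8 and 53.7 CPM in NT and 202 and 197 CPM in oeSRPK1 (1.92 ± 0.14). Also so chosen, FBXO32, a ubiquitin ligase subunit best known from muscle wasting, stood at 71.7 and 78.2 CPM in NT and 257 and 249.7 CPM in oeSRPK1 (1.76 ± 0.11, edgeR adjusted p = 0.000351). CAT, the catalase that breaks down hydrogen peroxide, fell from 75.3 and 66.9 to 24.4 and 23.3 CPM (-1.57 ± 0.13, edgeR adjusted p = 0.000454), and ITGA8, an integrin subunit, from 163 and 148 to 26.6 and 24.0 CPM (-2.61 ± 0.12). Among histone genes, likewise named after their values were seen, H2BC11, H2AC11 and H2BC12 on chromosome 6 were neighbours that rose (chr6:27122657-27146798, log2 changes 1.61 to 2.68). Single left-out libraries, in brackets, ended the calls on H2AC11 (NT 1, NT 2, oeSRPK1 1) and H2BC11 and H2BC12 (NT 1, oeSRPK1 1) (edgeR adjusted p up to 0.148).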
